A study of Rattus norvegicus with 6 samples.

Results

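The genes of club cells and of xenobiotic metabolism in the lung described here are Scgb1a1, Cyp2f4, Cyp4b1, Cyp2b1, Cyp2a3, Cyp1a1, Cyp1b1, Fmo2, Aldh1a1 and Ephx1. They were found on the arrays by gene name, with older names accepted, so that the probe the array calls Cyp2f2 stood for Cyp2f4 and Cyp2a3a for Cyp2a3. Of these 10 genes, 9 had at least 1 probe under an accepted name, with 10 probes in all out of 41012 on the array. No probe carried the name Cyp2b1. A probe named Cyp2b15 whose file description names cytochrome P450 2B1 is described beside the members as the 2B1 probe and is not counted among them. The 8 members tested were those of the 9 with a probe that exceeded background clearly throughout 1 or more of the groups, and they were tested within 24981 features, the series as a whole. Cyp1a1 did not meet that condition.

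The arrays came from right lungs of male Wistar rats that were 9 weeks old and breathed C60 fullerene, nickel oxide (NiO) in ultrafine form or only clean air, for 6 hours on 5 days of each of 4 weeks in a whole-body chamber. Clean air was the negative control and NiO the positive control of the study. Lungs were taken 3 days or 33 days (1 month) after the last exposure, after perfusion with saline, and RNA of the homogenised right lung was hybridised in 1 colour. The groups used held 3 control, 2 C60 and 4 NiO arrays at 3 days and 4 arrays of each at 1 month. All groups share strain, sex and the labelled age. The 1-month lungs were taken later after exposure, so age at lung removal cannot be told apart from time. The labels do not tie arrays to rats, so that p-values measure the spread between arrays. The C60 group at 3 days had 4 array files, a labelled n of 2, and arrays 1 and 2 were used because their mean matched the deposited column.

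Club cells are the dome-shaped secretory cells of the airway lining. They secrete Scgb1a1, a small anti-inflammatory protein also known as club cell secretory protein, and they carry most of the cytochrome P450 of the rodent lung, which makes them the cell that inhaled aromatics such as naphthalene injure first. P450 enzymes oxidise a foreign molecule, and flavin monooxygenases, aldehyde dehydrogenases and epoxide hydrolases act beside them or on their products. Cyp1a1 and Cyp1b1 are target genes of the aryl hydrocarbon receptor (AhR), a sensor of planar aromatic compounds.

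The probe sequences are given for Scgb1a1, Cyp4b1, Cyp2f4 and the 2B1 probe because the results below rest on what these oligonucleotides of 60 bases bind. They are read 5′ to 3′ from the scanner files, and the coordinates are those the files give on rat build rn4.
Scgb1a1 probe, chr1:211759736-211759795, minus strand: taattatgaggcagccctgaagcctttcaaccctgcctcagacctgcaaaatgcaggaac
Cyp4b1 probe, chr5:135922246-135922305, minus strand: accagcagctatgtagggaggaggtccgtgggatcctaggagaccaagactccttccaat
Cyp2f4 probe, chr1:82204527-82204586, plus strand: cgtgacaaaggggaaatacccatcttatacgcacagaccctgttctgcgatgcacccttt
2B1 probe, chr1:81283700-81283759, plus strand: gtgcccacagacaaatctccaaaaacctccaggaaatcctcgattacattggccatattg
Each of these 4 probes has at least 1 reading frame without a stop codon. The Scgb1a1 and Cyp4b1 probes have 1 such frame, the Cyp2f4 probe has 2 and the 2B1 probe has 3.

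The CYP2B genes lie close together and resemble each other, so the pair of overlapping 2B probes is also shown. The first is named Cyp2b13 in the files and the second Cyp2b15, with the accession of Cyp2b12. Capitals mark the bases at which they differ.
First probe: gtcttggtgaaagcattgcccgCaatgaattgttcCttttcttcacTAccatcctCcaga
Second probe: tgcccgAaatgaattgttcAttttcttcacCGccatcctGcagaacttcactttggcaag
They overlap over 44 bases and differ at 5 of them (88.6% identical), so that RNA of 1 of these genes could bind both probes to a degree that was not measured here. The 2B1 probe shares no such stretch with either of them. Its best match is the second Cyp2b13 probe, with 30 of 38 bases identical.

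Promoter sequences are given for Scgb1a1, Cyp4b1, Cyp2b1 and Aldh1a1, the 3 members that passed the test in a comparison with control and the gene named by the 2B1 probe. RefSeq holds a window of 300 bases, from 250 before to 50 after the gene start on build GRCr8, for 9 of the 10 genes. The 250 bases before the start are printed 5′ to 3′ on the gene's strand. Capitals mark CAAGTG (the core bound by NKX2-1, a lung lineage factor), TGTTTAC and TATTTAC (bound by FOXA factors), GCGTG (the core bound by AhR) and TGACNNNGC (the antioxidant element), on either strand.
Scgb1a1, chr1:215409687-215409936, minus strand: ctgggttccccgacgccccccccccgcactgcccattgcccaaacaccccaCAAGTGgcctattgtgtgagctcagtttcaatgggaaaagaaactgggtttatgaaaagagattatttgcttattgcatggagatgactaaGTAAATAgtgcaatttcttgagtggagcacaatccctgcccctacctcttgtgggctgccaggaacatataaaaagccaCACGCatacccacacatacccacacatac
Cyp4b1, chr5:134393117-134393366, minus strand: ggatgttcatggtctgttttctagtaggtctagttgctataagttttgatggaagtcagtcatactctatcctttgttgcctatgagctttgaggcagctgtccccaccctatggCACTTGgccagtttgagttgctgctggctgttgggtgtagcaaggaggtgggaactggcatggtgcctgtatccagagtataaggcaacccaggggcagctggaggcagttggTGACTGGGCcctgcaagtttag
Cyp2b1, chr1:90645869-90646118, plus strand: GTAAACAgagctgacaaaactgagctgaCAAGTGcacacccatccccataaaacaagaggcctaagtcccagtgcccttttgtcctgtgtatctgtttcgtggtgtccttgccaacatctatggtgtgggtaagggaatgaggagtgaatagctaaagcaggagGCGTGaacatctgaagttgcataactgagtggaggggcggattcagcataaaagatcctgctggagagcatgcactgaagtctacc
Aldh1a1, chr1:227537370-227537619, plus strand: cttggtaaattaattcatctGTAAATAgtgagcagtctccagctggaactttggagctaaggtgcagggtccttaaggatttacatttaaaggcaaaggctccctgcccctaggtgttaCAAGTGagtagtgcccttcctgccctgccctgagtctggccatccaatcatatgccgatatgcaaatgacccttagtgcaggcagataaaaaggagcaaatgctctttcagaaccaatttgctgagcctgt
CAAGTG was found in these 4 promoter windows and in none of the windows of Cyp2f4, Cyp2a3, Cyp1b1, Fmo2 and Ephx1. Over all 33469 windows of that length in the table, 14.1% hold it. It starts 199 bases before the Scgb1a1 start, 135 before Cyp4b1, 222 before Cyp2b1 and 131 before Aldh1a1. A FOXA sequence lies in the windows of Scgb1a1 (TATTTAC, 3.51% of all windows), Aldh1a1 (TATTTAC) and Cyp2b1 (TGTTTAC, 3.78%). GCGTG, held by 29.7% of all windows, occurs in Scgb1a1, in Cyp2b1 and at 2 places in Cyp1b1. The antioxidant element, in 12.1%, occurs in Cyp4b1 and Ephx1. Also searched were TATAAA (14.2% of windows, in Scgb1a1 and Cyp2a3), CCAAT (37.5%, in Cyp2f4, Fmo2, Aldh1a1 and Ephx1) and TTGCNNAA, a pattern of the C/EBP type (10.6%, in Scgb1a1, Cyp2b1, Cyp2a3 and Fmo2). A match is a run of letters in a window, not a measured binding site.

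**Figure D1:**
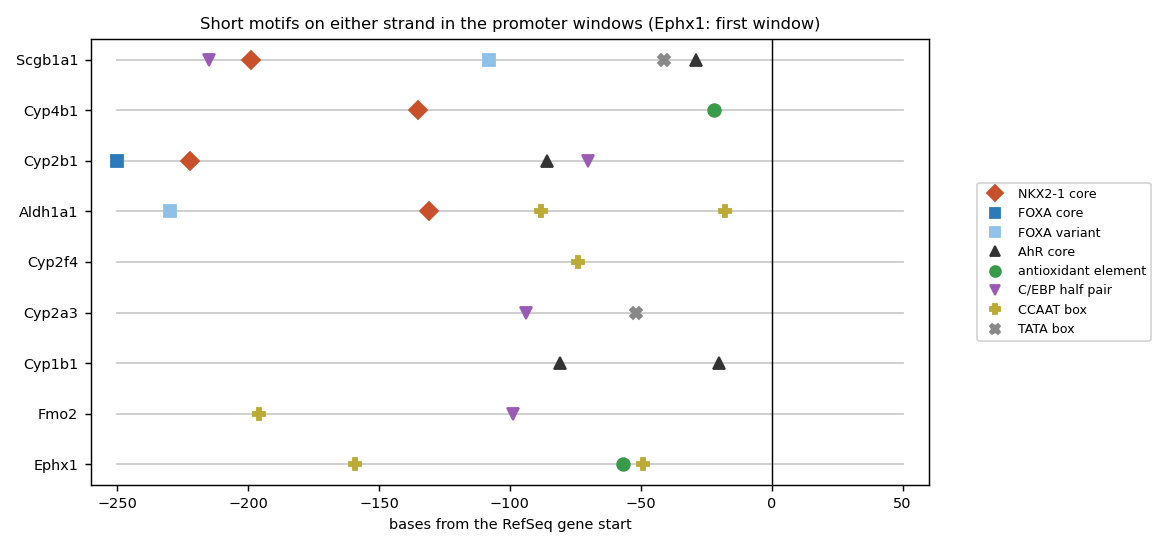
Positions of the 8 searched motifs in the promoter windows of 9 genes, in bases from the RefSeq gene start, with 1 symbol per match on either strand and the first of the 2 windows of Ephx1. The NKX2-1 core appears in 4 genes, Scgb1a1, Cyp4b1, Cyp2b1 and Aldh1a1.

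Levels below are log2 of the processed array signal minus the 75th percentile of the same array, so that 0 is the 75th percentile and a step of 1 is a factor of 2. They compare groups for 1 probe and do not rank probes against each other. Differences are log2 folds with the standard error (SE) from limma, and a gene is said to have risen or fallen where the Benjamini-Hochberg adjusted p over all features was under 0.05. On the 21 used arrays, 57.4% to 78.3% of spots were well above background. The lowest shares, 57.4% and 60.7%, were on the used C60 arrays at 3 days. Their negative-control net signal was 142.7 and 64.4, against 24.3 to 37.4 on the other used arrays. On the unused C60 arrays 3 and 4 it was 40.8 and 34.2. The part of this background in the C60 results was not tested. No slide carried arrays of more than 1 group, so effects of slide and of group cannot be told apart. The 3-day and 1-month arrays were scanned on different days, so time, age at lung removal and scan day cannot be told apart. On the first principal component of the 28677 kept probes (31.3% of the variance), NiO arrays 2 and 3 at 3 days lay at 113.0 and 116.1. The next highest was control array 2 at 1 month, at 63.8, and the other 1-month controls lay at 5.8, 32.0 and 17.7. All particle arrays at 1 month lay at -41.8 or below. Control arrays 3 and 4 at 1 month had high shares of spots above background (78.3% and 77.1%). Calls of members and of named list genes that were lost without NiO arrays 2 and 3 or without control arrays 3 and 4 are given with their values below. The latter refit keeps control array 2, and list genes were not refitted without that array. In whole lung, fewer cells of a type and less RNA per cell cannot be told apart.

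At 3 days after NiO, Scgb1a1, Aldh1a1 and Cyp4b1 fell, to between 0.579 and 0.755 of the control level. At 1 month after NiO, Cyp4b1 was higher than in control, and 1 month after C60, Scgb1a1 and Cyp4b1 were higher. No member passed the test 3 days after C60 or between NiO and C60.

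Set against all features, the counts were these. At 3 days after NiO, 3 of 8 members fell and 0 rose, where 7.86% of all features fell and 11.1% rose, and the median member fold was -0.39 against 0.04 for all features. At 1 month after NiO, 1 of 8 rose and 0 fell, where 11.9% of all features rose and 18.9% fell, with medians of -0.14 for the members and -0.12 for all. At 3 days after C60, 0 of 8 passed the limma test in either direction, where 2.94% of features rose and 1.99% fell, 0 of 8 had an unadjusted p under 0.05, and the member median was -0.24 against -0.03. At 1 month after C60, 2 of 8 rose and 0 fell, where 7.29% of features rose and 12.4% fell, and the member median was 0.20 against -0.09. The share of 1 in 8 at 1 month after NiO is close to that of all features.

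**Figure D2:**
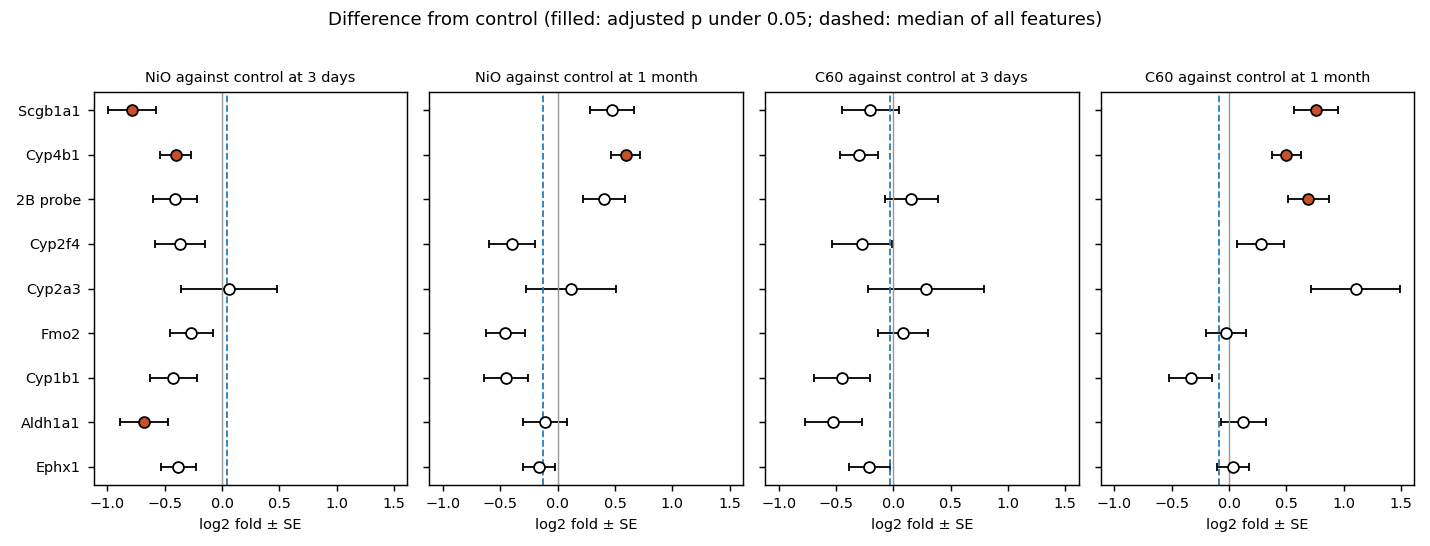
Log2 fold with SE of 8 members and the 2B1 probe (marked 2B probe) against control in 4 comparisons, 1 panel each, with filled points at an adjusted p under 0.05 and the median of all features as a dashed line. Scgb1a1 and Cyp4b1 lie to the left of 0 at 3 days after NiO and to the right of it in both 1-month panels.

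Scgb1a1 is the defining secretory gene of the club cell. At 3 days its level was 4.31, 4.64 and 4.12 on the control arrays, 4.04 and 4.27 after C60, and 4.09, 3.17, 3.25 and 3.77 after NiO. All 4 NiO arrays lay below the lowest control array, and arrays 2 and 3 were the low ones. At 1 month it was 3.23, 3.02, 3.61 and 3.81 in control, 4.14, 4.31, 4.09 and 4.17 after C60, and 3.96, 3.99, 3.84 and 3.76 after NiO. All 4 C60 arrays lay above all 4 controls, while the lowest NiO array overlapped the highest control.

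At 3 days after NiO, Scgb1a1 fell by 0.79 on the log2 scale (SE 0.21, adjusted p = 0.0166), to 0.579 of the control level. The fold was -0.65 (adjusted p = 0.0563) with NiO array 2 left out, -0.68 (adjusted p = 0.0562) with NiO array 3 left out and -0.65 (adjusted p = 0.0792) with control array 2 left out. Without NiO arrays 2 and 3 together the fold was -0.43 (adjusted p = 0.256), and in a fit of only the compared groups the fold was unchanged at an adjusted p of 0.156. After C60 at 3 days the fold was -0.20 (SE 0.25, adjusted p = 0.775).

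Scgb1a1 rose 1 month after C60, by 0.76 (SE 0.19, adjusted p = 0.0142), or 0.85 relative to the median of all features. Without control array 2 the fold was 0.63 and the adjusted p 0.0507. After NiO it was 0.47 above control (SE 0.19, adjusted p = 0.0707), or 0.60 relative to all features, and the call was gained without control array 4 (0.60, adjusted p = 0.0319) and without control arrays 3 and 4 together (0.77, adjusted p = 0.0142). The change of the NiO effect between the times was 1.26 (SE 0.28, adjusted p = 0.00512). That of the C60 effect was 0.96 (SE 0.32, adjusted p = 0.0596), and it passed without control array 4 (1.09, adjusted p = 0.0334), without control arrays 3 and 4 (1.26, adjusted p = 0.0135), with all 4 C60 arrays (1.17, adjusted p = 0.00844) and in a fit of only the compared groups (adjusted p = 0.0488). This shared 1-month control group was itself the lowest of the 6 groups.

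The order of Scgb1a1 over the groups, by mean ± SD, was control at 3 days (4.36 ± 0.26, n = 3), C60 at 1 month (4.18 ± 0.09, n = 4), C60 at 3 days (4.15 ± 0.16, n = 2), NiO at 1 month (3.89 ± 0.11, n = 4), NiO at 3 days (3.57 ± 0.44, n = 4) and control at 1 month (3.42 ± 0.36, n = 4). Neighbours in this order overlapped, except that C60 at 3 days (4.04 and 4.27) lay above NiO at 1 month (3.76 to 3.99). Both particle groups at 1 month had means between those of the control groups. The control level itself was lower by 0.94 at 1 month than at 3 days (SE 0.21, adjusted p = 0.00161).

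**Figure D3:**
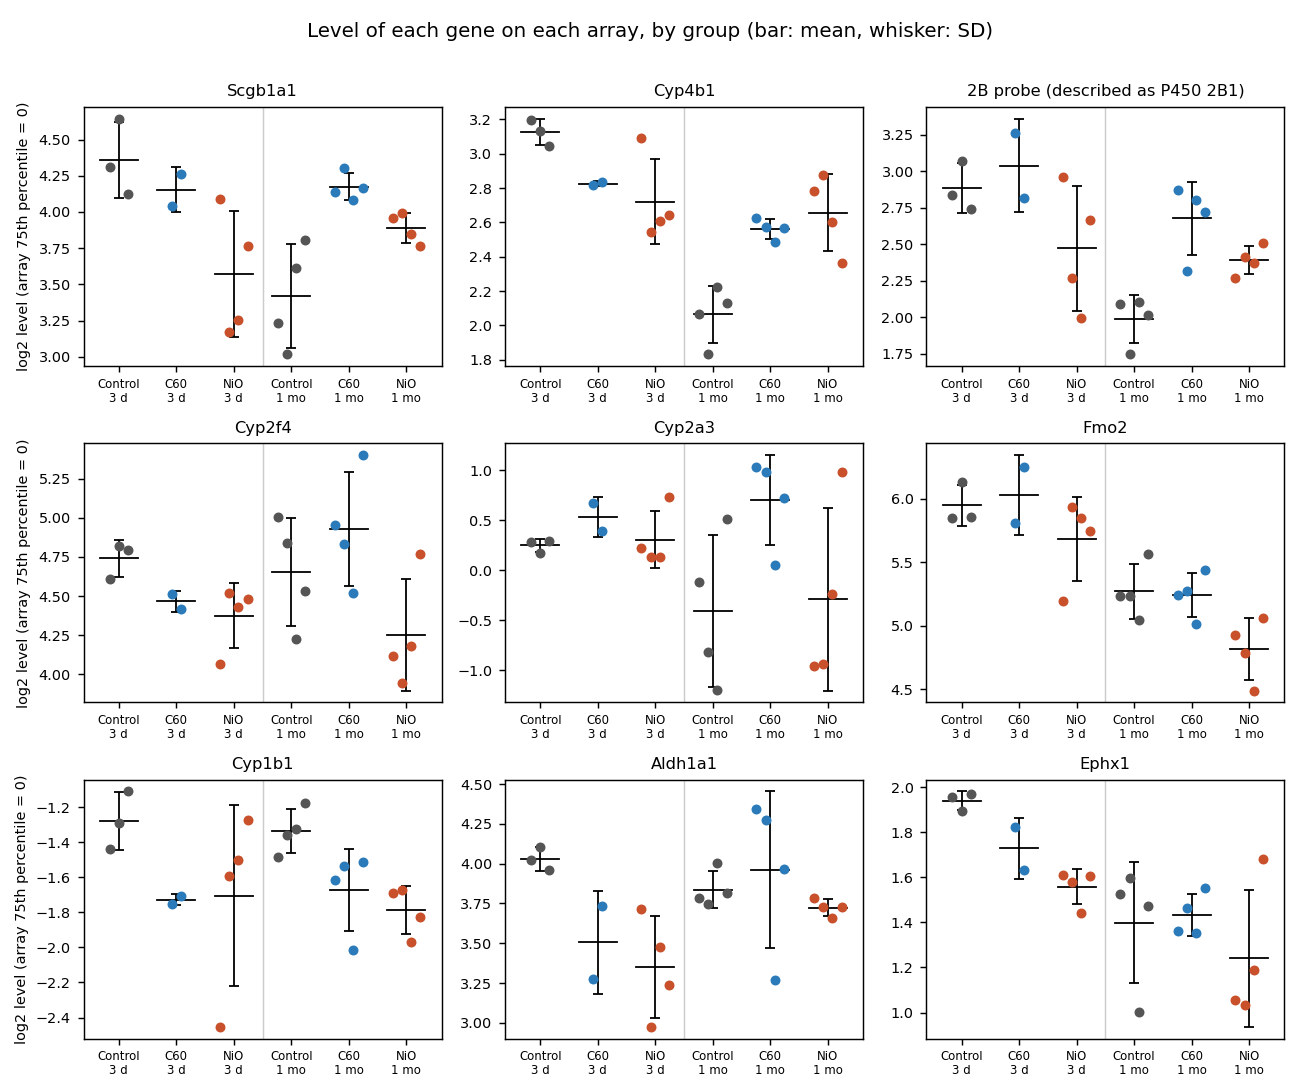
Log2 level on each of the 21 used arrays (points) by group, with the group mean (bar) and SD (whisker), for 8 members and the 2B1 probe, each panel with its own axis. In the panels of Scgb1a1, Cyp4b1 and the 2B1 probe, the 1-month control group is the lowest of the 6 groups.

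Cyp4b1 is a lung-rich P450 that oxidises fatty acids and activates plant and aromatic toxins. Its level at 3 days was 3.20, 3.13 and 3.05 in control, 2.82 and 2.83 after C60, and 3.09, 2.54, 2.61 and 2.64 after NiO. Both C60 arrays and 3 of the 4 NiO arrays lay below the lowest control. The 1-month level was 2.07, 1.83, 2.22 and 2.13 in control, 2.63, 2.57, 2.48 and 2.57 after C60, and 2.78, 2.88, 2.60 and 2.36 after NiO. At that time neither particle group overlapped the control group.

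Cyp4b1 fell 3 days after NiO by 0.41 (SE 0.14, adjusted p = 0.0470). This call was at the edge and was lost when any 1 array of the 2 groups was left out except NiO array 1, with adjusted p from 0.0826 to 0.148, and without NiO arrays 2 and 3 together (-0.26, adjusted p = 0.393). After C60 at 3 days the fold was -0.30 (SE 0.16, adjusted p = 0.373). It was -0.63 (adjusted p = 0.0277) when all 4 C60 arrays were used.

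At 1 month Cyp4b1 rose by 0.59 after NiO (SE 0.13, adjusted p = 0.00347), or 0.72 relative to the median of all features. After C60 it rose by 0.50 (SE 0.13, adjusted p = 0.0139), or 0.59 relative to the median. The NiO call held in every setting tried, with adjusted p from 0.0022 to 0.0213. The C60 call was lost with another background correction (normexp, 0.31, adjusted p = 0.0901). Its effect changed between the times by 1.00 for NiO (SE 0.19, adjusted p = 0.00189) and by 0.80 for C60 (SE 0.21, adjusted p = 0.0210), and the latter was lost without C60 array 1 or 2 of the 3-day group (adjusted p = 0.0746 and 0.0749). By mean ± SD the order was control (3.13 ± 0.08), C60 (2.83 ± 0.01) and NiO (2.72 ± 0.25) at 3 days, then NiO (2.66 ± 0.23), C60 (2.56 ± 0.06) and control (2.06 ± 0.17) at 1 month. In that order the first pair of neighbours and the last pair did not overlap, and the other neighbours did.

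Over the changes between times, 2 of 8 members (Scgb1a1 and Cyp4b1) passed the test upwards for NiO and 0 downwards, where 14.5% of all features passed upwards and 23.1% downwards. For C60, 1 of 8 (Cyp4b1) passed upwards and 0 downwards, where 4.23% and 6.2% of features did. In control lungs, 4 of 8 members were lower at 1 month than at 3 days and 0 higher, where 18.3% of all features were lower and 27.7% higher. Those 4 were Scgb1a1, Cyp4b1 (-1.06, adjusted p = 1.5e-05), Fmo2 (-0.68, adjusted p = 0.0064) and Ephx1 (-0.54, adjusted p = 0.00755).

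CYP2B1 is the main P450 of the rat lung and in liver the classic target of phenobarbital. The 2B1 probe was at 2.84, 3.07 and 2.74 in control, 3.26 and 2.81 after C60, and 2.96, 2.27, 1.99 and 2.66 after NiO at 3 days. At 1 month it was 2.09, 1.74, 2.10 and 2.01 in control, 2.87, 2.32, 2.80 and 2.72 after C60, and 2.27, 2.41, 2.37 and 2.50 after NiO. At 1 month every particle array lay above every control array, and at 3 days 3 of the 4 NiO arrays lay below the lowest control and the other within the control range.

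The 2B1 probe rose 1 month after C60 by 0.69 (SE 0.18, adjusted p = 0.0154), and the adjusted p was 0.0513 without control array 2. After NiO it was 0.40 above control at 1 month (SE 0.18, adjusted p = 0.0931) and 0.41 below it at 3 days (log2 fold -0.41, SE 0.19, adjusted p = 0.138). The 3-day fold was -0.58 (adjusted p = 0.0182) without NiO array 1, the highest of that group. The change of the NiO effect was 0.82 (SE 0.26, adjusted p = 0.0240), and 0.48 (adjusted p = 0.151) without NiO arrays 2 and 3 of the 3-day group.

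Other CYP2B probes were compared in a fit of all 28677 kept probes. The first Cyp2b13 probe was 0.78 above control 1 month after C60 (SE 0.17, adjusted p = 0.0063), and the probe with the Cyp2b12 accession also 0.78 (SE 0.17, adjusted p = 0.00623). These are the 2 overlapping oligonucleotides printed above. After NiO at 1 month they were 0.49 (adjusted p = 0.0394) and 0.49 (adjusted p = 0.0362) above control. The second Cyp2b13 probe was 0.55 above control 1 month after C60 (adjusted p = 0.0473). The second Cyp2b13 probe fell by 0.95 at 3 days after NiO (SE 0.20, adjusted p = 0.0049). On the Cyp2b3 probe the 3-day control arrays were at -4.19, -4.19 and -4.50, and those of the 1-month control group at -2.33, -2.37, -2.05 and -2.15. Cyp2b3 rose by 1.24 after NiO (SE 0.17, adjusted p = 0.000111) and by 1.80 after C60 (SE 0.20, adjusted p = 2.4e-05) at 3 days, and fell by 0.86 after NiO at 1 month (SE 0.16, adjusted p = 0.00134).

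**Figure D4:**
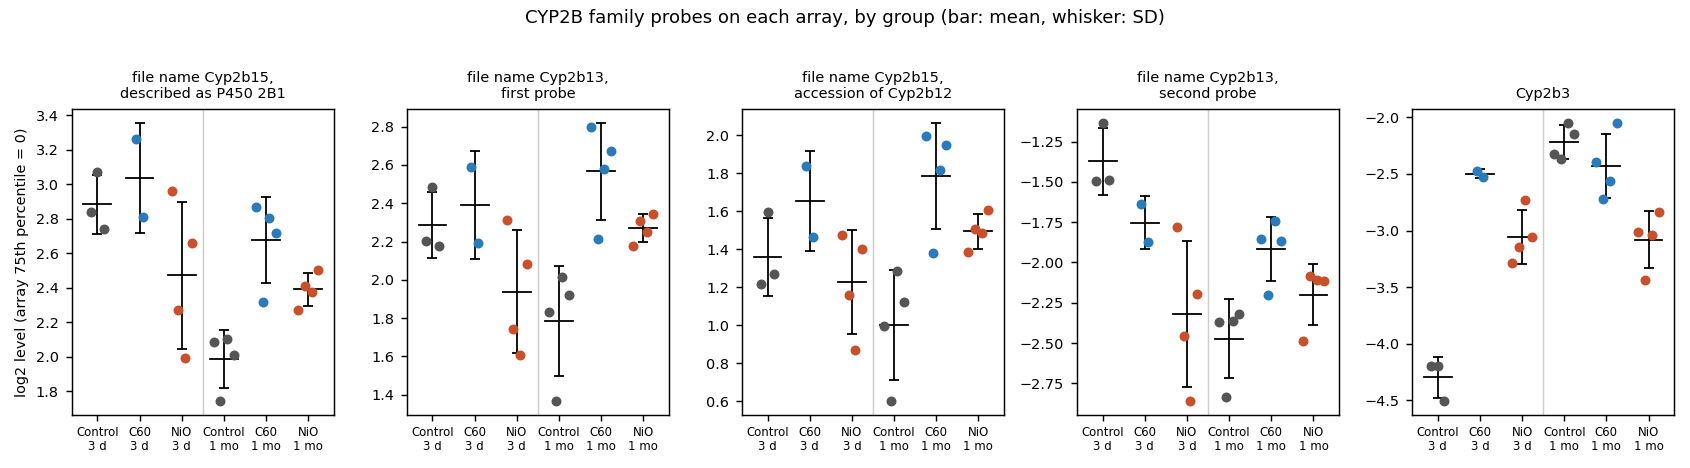
Log2 level of 5 CYP2B family probes on each used array (points), by group, with group mean (bar) and SD (whisker), each panel with its own axis. The first 4 probes are lowest on average in the 1-month control group, and the Cyp2b3 probe is lowest in the 3-day control group and highest in the 1-month one.

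Cyp2f4 and Cyp2a3 are the other club cell and airway P450s, the former known for activating naphthalene and the latter for coumarin and tobacco nitrosamines. Cyp2f4 was 4.61 to 4.82 in 3-day control, 4.42 and 4.51 after C60 and 4.07 to 4.52 after NiO, so that no particle array reached the control range. The folds were -0.37 for NiO (SE 0.22, adjusted p = 0.239) and -0.27 for C60 (SE 0.26, adjusted p = 0.677). The 1-month level was 4.23 to 5.01 in control, 4.52 to 5.40 after C60 and 3.94 to 4.77 after NiO, and the groups overlapped. There the folds were -0.40 for NiO (SE 0.20, adjusted p = 0.137) and 0.27 for C60 (SE 0.20, adjusted p = 0.332). NiO array 4 was the highest of its group, and without it the NiO fold was -0.57 (adjusted p = 0.0407). Without control arrays 3 and 4 together it was -0.67 (adjusted p = 0.0356).

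In the 1-month groups the level of Cyp2a3 was -0.11, -0.82, -1.20 and 0.52 in control, 1.03, 0.98, 0.06 and 0.72 after C60, and -0.96, -0.94, -0.24 and 0.99 after NiO. Values spread over more than 1 log2 unit in control and in NiO lungs. The fold after C60 was 1.10 (SE 0.39, adjusted p = 0.0541), and it passed the test without control array 4 (1.41, adjusted p = 0.0211) and without C60 array 3 (1.32, adjusted p = 0.0474). It also passed with all 4 arrays of the 3-day C60 group (adjusted p = 0.0435), the filter on every array (adjusted p = 0.0487) and normexp (1.07, adjusted p = 0.0442). At 3 days it was between 0.13 and 0.73 on every used array, with folds of 0.06 for NiO (adjusted p = 0.934) and 0.28 for C60 (adjusted p = 0.864).

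Cyp1a1 and Cyp1b1 are the AhR targets among the members. Cyp1a1 is printed in 10 spots on each array, and the level below is the mean of those spots. At 3 days it was -7.14, -3.66 and -4.63 in control, -6.19 and -6.54 after C60, and -6.35, -3.74, -5.76 and -4.94 after NiO. At 1 month it was -6.61, -2.85, -7.74 and -5.11 in control, -4.03, -2.85, -3.95 and -7.02 after C60, and -7.69, -7.07, -7.68 and -7.46 after NiO. In the 1-month NiO group no array had a spot well above background.

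The SD over the 10 spots of an array was 0.10 to 0.87, and the SD over the arrays of a group was 0.24 to 2.12. Most spots were well above background on 2 of 3 control, 0 of 2 C60 and 2 of 4 NiO arrays at 3 days, and on 2 of 4 control, 3 of 4 C60 and 0 of 4 NiO arrays at 1 month. In all 4 groups with such arrays, the array at position 2 of the slide was the brightest, a pattern noticed after the values were seen. With no filter on dim probes, its folds against control had adjusted p of 0.179 for NiO and 0.465 for C60 at 1 month, and 0.973 and 0.659 at 3 days, and NiO against C60 at 1 month had 0.312.

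**Figure D5:**
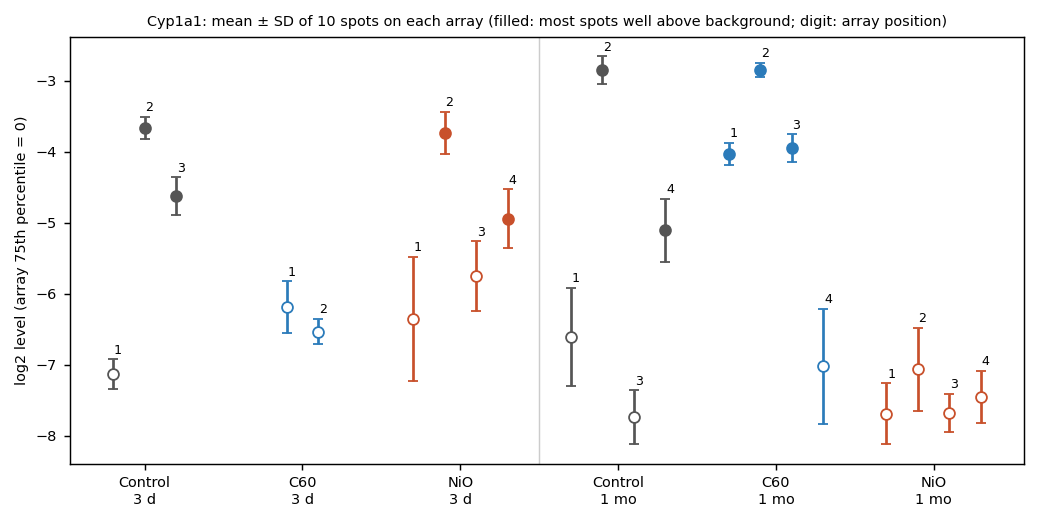
Cyp1a1 level on each used array by group: each point is the mean of 10 spots on 1 array, whiskers are the SD over those spots, digits give the array position on the slide, and filled points had most spots well above background. All 4 NiO arrays at 1 month lie at -7.07 or below.

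Cyp1b1, an AhR target that also occurs in stromal cells, was measured by 2 probes. The brighter probe was -1.44, -1.29 and -1.11 in control, -1.75 and -1.71 after C60 and -2.45, -1.60, -1.50 and -1.27 after NiO at 3 days. The 1-month level was -1.49 to -1.18 in control, -2.02 to -1.51 after C60 and -1.97 to -1.67 after NiO, and both particle groups lay below the control group without overlap. None of the folds passed the test: -0.43 for NiO (adjusted p = 0.145) and -0.45 for C60 (adjusted p = 0.374) at 3 days, and -0.45 (adjusted p = 0.0761) and -0.33 (adjusted p = 0.208) at 1 month. The 1-month NiO fold passed with normexp (-0.48, adjusted p = 0.0196) and in a fit of only the compared groups (adjusted p = 0.0218).

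The dimmer Cyp1b1 probe was well above background on all 3 control arrays at 3 days (-4.20, -4.49 and -4.38) and on none of the used particle arrays of that time. On the unused C60 arrays 3 and 4 this probe was well above background, at -6.02 and -5.95. It was at least 1.44-fold lower after NiO (fitted log2 fold -1.55, adjusted p = 0.00111 over all probes). After C60 no bound could be defined. The mean of both probes passed the test in both 3-day comparisons and at 1 month after NiO (-0.55, adjusted p = 0.0184). That mean takes in values of the dimmer probe that were not well above background.

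Fmo2, the main flavin monooxygenase of the lung, was 5.85 to 6.13 in control, 5.81 and 6.25 after C60 and 5.19 to 5.93 after NiO at 3 days, with folds of 0.08 for C60 (adjusted p = 0.921) and -0.27 for NiO (adjusted p = 0.312). At 1 month it was 5.23, 5.24, 5.05 and 5.56 in control, 5.24, 5.28, 5.01 and 5.44 after C60 and 4.92, 4.78, 4.49 and 5.06 after NiO. Control and C60 arrays overlapped, and 3 of 4 NiO arrays lay below all of them. The NiO fold of -0.46 (SE 0.17, adjusted p = 0.0506), or -0.33 relative to all features, just missed the test. It passed without NiO array 4 (-0.54, adjusted p = 0.0391), without control array 3 (-0.53, adjusted p = 0.0389) and with quantile normalization (-0.42, adjusted p = 0.0294).

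Aldh1a1 makes retinoic acid from retinaldehyde and clears aldehydes. It was 4.02, 4.11 and 3.96 in control, 3.28 and 3.73 after C60 and 3.72, 2.98, 3.48 and 3.23 after NiO at 3 days, with every particle array below every control. It fell after NiO by 0.68 (SE 0.21, adjusted p = 0.0325). Leaving out any 1 array of the 2 groups other than NiO array 1 left folds of -0.55 to -0.72 at adjusted p of 0.0544 to 0.105, and without NiO arrays 2 and 3 together the fold was -0.55 (adjusted p = 0.216). After C60 the fold was -0.52 (SE 0.25, adjusted p = 0.288). The 1-month level was 3.75 to 4.01 in control, 3.27 to 4.34 after C60 and 3.66 to 3.78 after NiO, with folds of 0.13 and -0.11.

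Ephx1, the microsomal enzyme that opens epoxides made by P450s, was 1.96, 1.89 and 1.97 in control, 1.82 and 1.63 after C60 and 1.61, 1.58, 1.44 and 1.61 after NiO at 3 days. Its groups did not overlap, yet the folds of -0.38 for NiO (SE 0.15, adjusted p = 0.0817) and -0.21 for C60 (SE 0.18, adjusted p = 0.629) did not pass. At 1 month it was 1.00 to 1.60 in control, 1.36 to 1.55 after C60 and 1.03 to 1.68 after NiO, with folds of 0.03 for C60 and -0.16 for NiO.

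NiO and C60 were compared directly. At 3 days 0 of 8 members passed the limma test in either direction, where 5.05% of features were higher after NiO and 2.72% lower, and 1 of 8 had an unadjusted p under 0.05. That member was Scgb1a1, at -0.58 (95% interval -1.08 to -0.09, adjusted p = 0.126), and at -0.76 (adjusted p = 0.0171) without NiO array 1. At 1 month 0 of 8 passed the limma test, where 0.837% of features were higher and 0.392% lower, and 3 of 8 had an unadjusted p under 0.05. Those were Cyp2f4 at -0.67 (95% interval -1.10 to -0.25, adjusted p = 0.140), Cyp2a3 at -0.99 (-1.81 to -0.17, adjusted p = 0.346) and Fmo2 at -0.43 (-0.79 to -0.07, adjusted p = 0.352), all lower after NiO. Without NiO array 4, Cyp2f4 (-0.85, adjusted p = 0.0416) and Cyp2a3 (-1.41, adjusted p = 0.0455) passed. For Cyp4b1 at 1 month the interval of the difference was -0.17 to 0.36. The comparisons with control share control arrays.

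The genes with the pattern most like Scgb1a1 over the 21 arrays were LOC679203 (Pearson r = 0.94), Eng (0.94), an endothelial co-receptor, and Gstm2 (0.94), a glutathione transferase. The arrays share slides within groups, so these values describe only likeness. The 2B1 probe had r = 0.77 with Scgb1a1 and ranked 676 among the named genes in likeness, and Cyp4b1 had 0.72 and ranked 1006. For the other members r was 0.47 for Aldh1a1, 0.36 for Cyp2a3, 0.24 for Ephx1, 0.16 for Fmo2, 0.04 for Cyp2f4 and -0.12 for Cyp1b1. No likeness is given for Cyp1a1, which had no clear signal on most arrays.

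Other club cell and airway secretory genes were followed as a list of 20, of which 17 were tested. After NiO at 3 days 3 rose and 1 fell (11.1% and 7.86% of all features), and at 1 month 3 rose and 3 fell (11.9% and 18.9%). The claudin Cldn10 rose by 0.92 (adjusted p = 0.00619), the immunoglobulin receptor Pigr by 0.76 (adjusted p = 0.0258) and haptoglobin (Hp) by 0.71 (adjusted p = 0.0086) at 3 days, while Lypd2 fell by 0.72 (adjusted p = 0.0419). Without NiO arrays 2 and 3, Hp was at 0.47 (adjusted p = 0.141) and Lypd2 at -0.32 (adjusted p = 0.494), and Cldn10 and Pigr still passed. Pigr was higher 1 month after NiO, by 0.88 (adjusted p = 0.00518). Bpifa1, a secreted airway host-defence protein, fell by 1.28 (adjusted p = 0.0329). Chad fell by 1.28 (adjusted p = 0.00677) and Dnase1 fell by 1.01 (adjusted p = 0.0143). Without control arrays 3 and 4, Bpifa1 was at -0.84 (adjusted p = 0.215) and Chad at -0.95 (adjusted p = 0.0612). After C60, 1 fell at 3 days (Gabrp, at least 2.05-fold lower, adjusted p = 0.0102), and 1 rose and 3 fell at 1 month (7.29% and 12.4% of all features). The list medians ran from -0.16 to 0.16 over the 4 comparisons.

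Among 26 tested other phase I enzymes (31 listed), 1 rose and 1 fell at 3 days after NiO (11.1% and 7.86% of all features), and 3 rose and 4 fell at 1 month (11.9% and 18.9%). At 3 days these were Cyp2c23, up by 1.50 (adjusted p = 0.000905), and Fmo1, with a log2 fold of -0.77 (adjusted p = 0.00391), which was -0.52 (adjusted p = 0.0738) without NiO arrays 2 and 3. After C60, 5 rose and 3 fell at 1 month (7.29% and 12.4% of all features). The 2B1 probe is in this list under its name Cyp2b15 and is among these rises. The list also names Cyp2b12, whose probe is described above, so these counts are not separate from the CYP2B results. Without control arrays 3 and 4, 6 rose and 3 fell after NiO and 7 rose and 3 fell after C60. Por, which passes electrons to P450s, was 0.54 higher after NiO (adjusted p = 0.0452) and 0.68 higher after C60 (adjusted p = 0.0242) at 1 month, and 0.88 and 1.02 higher without control arrays 3 and 4. Fmo1, the sister of Fmo2, was 0.90 lower after NiO than after C60 at 3 days (log2 fold -0.90, adjusted p = 0.00642), and -0.66 (adjusted p = 0.0607) without NiO arrays 2 and 3.

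Among 21 tested aldehyde, carbonyl and epoxide enzymes, NiO gave 2 up and 1 down at 3 days (11.1% and 7.86% of all features) and 7 up and 3 down at 1 month (11.9% and 18.9%). The level of Akr1b8, an aldo-keto reductase, was 1.41 to 1.80 in 3-day control and 2.57 to 3.65 after NiO, a rise of 1.75 (SE 0.26, adjusted p = 0.000232), and the 1-month rise was 1.48 (adjusted p = 0.00063). After C60 its folds were -0.04 at 3 days and 0.19 at 1 month (adjusted p = 0.976 and 0.572). At 1 month Aldh3a1, an aldehyde dehydrogenase of the AhR battery, fell by 0.69 after NiO (adjusted p = 0.0044) and by 0.77 after C60 (adjusted p = 0.00387), and mitochondrial Aldh2 rose by 0.47 after C60 (adjusted p = 0.0175). C60 gave 1 up and 0 down at 3 days (2.94% and 1.99% of all features) and 3 up and 1 down at 1 month (7.29% and 12.4%).

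Of 18 tested conjugation enzymes, 2 rose and 5 fell at 3 days after NiO (11.1% and 7.86% of all features), and 0 rose and 2 fell without NiO arrays 2 and 3. The fallen ones included Gstm1 (-0.80, adjusted p = 0.0144) and Gstm2 (-0.79, adjusted p = 0.0251). Without those 2 arrays Gstm1 was at -0.36 (adjusted p = 0.219) and Gstm2 at -0.42 (adjusted p = 0.340). After NiO at 1 month, 3 rose and 1 fell (11.9% and 18.9%), and 6 rose without control arrays 3 and 4. After C60 5 rose and 2 fell (7.29% and 12.4%), with Gstm2 up by 0.81 (adjusted p = 0.016). The 9 tested genes of the AhR axis gave 0 up and 2 down at 3 days after NiO, Nqo1 (-0.49, adjusted p = 0.00901) and Tiparp (-0.48, adjusted p = 0.0119, and -0.37, adjusted p = 0.136, without NiO arrays 2 and 3). At 1 month they gave 0 up and 2 down after NiO and 1 up and 2 down after C60, where 18.9% and 12.4% of all features fell. Ahr itself was well above background on 4 of 4 control arrays at 1 month and on 1 of 4 in each particle group, so that no fold is given. Of 12 tested nuclear receptors and their partners, 0 rose and 2 fell at 3 days after NiO (11.1% and 7.86% of all features). Without NiO arrays 2 and 3 it was 0 and 0. At 1 month after NiO 4 rose and 3 fell (11.9% and 18.9%). After C60, 1 rose and 2 fell at 3 days (2.94% and 1.99%), and 2 rose and 1 fell at 1 month (7.29% and 12.4%). The transcription factor Cebpb fell at 3 days after NiO by 0.81 (adjusted p = 0.00701), with a fold of -0.49 (adjusted p = 0.122) without NiO arrays 2 and 3. At 1 month after NiO Cebpb was higher by 1.13 (adjusted p = 0.000419).

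Markers of other cell types were counted in the same comparisons. Macrophage and monocyte markers, 10 tested, gave 5 up after NiO at 3 days and 7 at 1 month, where 11.1% and 11.9% of all features rose. Their summed level (in units of the array 75th percentile) was 46.2 to 53.2 in control and 115 to 144 after NiO at 3 days, and 50.6 to 65.5 and 117 to 230 at 1 month. After C60 the sum was 48.1 to 66.5, and 0 of these markers passed the limma test at either time. Of 11 tested endothelial markers, 5 fell at 3 days after NiO (7.86% of all features), and 0 passed the limma test without NiO arrays 2 and 3, with 3 at an unadjusted p under 0.05. After C60, 4 rose at 1 month (7.29%), and 5 were lower in 1-month than in 3-day control lungs (18.3%). At 1 month after NiO 0 rose and 2 fell (11.9% and 18.9%), and 2 rose and 2 fell without control arrays 3 and 4. The endothelial sums at 3 days were 373 to 411 in control, 366 to 369 after C60 and 307 to 409 after NiO. At 1 month they were 401 to 508 in control, 398 to 448 after C60 and 343 to 380 after NiO. The sums overlapped control at 3 days after NiO and at 1 month after C60. They lay below control at 3 days after C60 and at 1 month after NiO. Ciliated cell markers, 9 tested, gave 3 down and 0 up after NiO at each time, where 7.86% and 18.9% of all features fell, with 1 down at 3 days without NiO arrays 2 and 3 and 5 down at 1 month without control arrays 3 and 4. After C60 they gave 0 up and 1 down at 3 days (2.94% and 1.99% of all features) and 1 up and 0 down at 1 month (7.29% and 12.4%). The ciliated sums at 3 days were 154 to 171 in control, 120 to 127 after C60 and 114 to 149 after NiO. At 1 month they were 129 to 147 in control, 132 to 146 after C60 and 117 to 128 after NiO. Alveolar type II markers, 12 tested, gave 3 up at 3 days and 6 at 1 month after NiO (11.1% and 11.9% of all features). Alveolar type I markers, 10 tested, gave 1 up and 3 down at 3 days after NiO (11.1% and 7.86%). Without NiO arrays 2 and 3 they gave 0 up and 0 down. At 1 month after NiO they gave 1 up and 0 down (11.9% and 18.9%). In control lungs 1 was higher and 4 were lower at 1 month than at 3 days (27.7% and 18.3%). Neutrophil markers, 5 tested, gave 1 up and 0 down at 3 days after NiO, and 1 up and 1 down at 1 month. Their 3-day sums were 4.43 to 7.07 in control and 19.9 to 25.1 after NiO. Fibroblast markers, 9 tested, gave 2 up and 0 down at 3 days after NiO, and 0 up without NiO arrays 2 and 3. At 1 month they gave 0 up and 4 down, and 1 down without control arrays 3 and 4. After C60 the fibroblast markers gave 0 up and 3 down at 3 days, where 1.99% of all features fell, and 0 up and 0 down at 1 month. The shares of all features are those given above. Liver genes summed to 1.71 or less on every array. The part of these cell types in the members' results was not tested.

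Of the other club cell secretoglobins, Scgb3a2 had folds of 0.16 and -0.34 after NiO at 3 days and 1 month (adjusted p = 0.491 and 0.0925) and -0.16 and 0.09 after C60 (adjusted p = 0.775 and 0.681). Scgb3a1 had a fold of -0.06 at 1 month after NiO (adjusted p = 0.846) and -0.40 and 0.57 after C60 (adjusted p = 0.507 and 0.0620). The fold of Scgb3a1 at 3 days after NiO, where Scgb1a1 fell, is not given here. These genes were named after their values were seen.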

How the data were processed

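RNA of rat lungs was measured on 1-colour arrays, 4 to a slide. Signal intensity was extracted with Feature Extraction 9.5.3.1 (protocol GE1-v5_95_Feb07), background-subtracted and detrended, per the file headers. The authors also deposited a value table holding 1 ratio per probe and group, whose making is not stated and whose centring is unknown. The mean log2 signal of a group minus the median of the same-time controls was set against it on 20357 brighter probes. With a constant removed for each group, the median absolute log2 difference was 0.000316 to 0.000826 over the 6 groups. The deposited table was used to choose arrays 1 and 2 of the C60 group at 3 days (0.000806, against 0.109 for all 4 arrays). Its log2 ratios were also set beside the folds against control, without a test. At 1 month, after NiO and after C60, they were higher than the fold for every member tested. At 3 days after NiO they were lower for every member tested, and at 3 days after C60 they lay on both sides. At 1 month after NiO, Scgb1a1 was at 0.80 against a fold of 0.47, and Aldh1a1 at 0.27 against -0.11.

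Control spots and outlier spots were left out and spots of a probe averaged. The log2 signal was centred on the 75th percentile of each array. Probes well above background on every array of at least 1 group were kept, and the brightest probe stood for a gene. All 6 groups were fitted together with limma 3.58.1 (lmFit, eBayes, R 4.3.3; 15 residual degrees of freedom) and p-values adjusted by Benjamini-Hochberg over 24981 features. The fit was tested on simulated data. The number of arrays limits the precision.

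All members were named. Genes of other lists were named among the 4 largest called changes of their list in a comparison. For likeness of pattern, the 3 genes with the highest Pearson r to Scgb1a1 were named, and the same for Cyp1a1 is not reported here. Members and lists were chosen with earlier results of these data known. Sequence windows are from RefSeq (GRCr8). Alternatives were normexp, quantile normalization, other filters and probe rules, fits of the compared groups, all 4 C60 arrays, leaving out arrays and the deposited ratio.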

Additional observations from a re-analysis of the deposited data

Results flagged for a closer look

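In a group of 4 arrays, 1 array lay far from the others for 2 genes. Cyp2a3 was at 0.73 on array 4 at 3 days after NiO, where the other 3 arrays were at 0.13 to 0.23. Ephx1 was at 1.44 on array 3 of the same group, where the others were at 1.58 to 1.61. These were 2 of 36 groups tested, and chance gives about 1 in 20.

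The effect against control differed between 3 days and 1 month, by the limma test of the difference itself, in 4 cases. For NiO the change was 1.00 for Cyp4b1 (adjusted p = 0.00189), 1.26 for Scgb1a1 (adjusted p = 0.00512) and 0.82 for the 2B1 probe, named Cyp2b15 (adjusted p = 0.0240). For C60 it was 0.80 for Cyp4b1 (adjusted p = 0.0210). In control lungs all of these were lower at 1 month than at 3 days, and time, age at lung removal and scan day cannot be told apart.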

How the results depend on the processing

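No value changed sign while called. The 3 calls at 3 days after NiO were the least stable: 0 were called in a fit of the compared groups only and 0 without NiO arrays 2 and 3 together (chosen after seeing the data), 1 with no filter on dim probes, 2 with quantile normalization, 2 with all 4 C60 arrays, 4 with normexp (Ephx1 added, adjusted p = 0.0443), 4 with the mean of probes, and 0 to 3 when 1 array was left out. The folds of Scgb1a1 and Aldh1a1 without 1 array stayed at -0.55 or lower. At 1 month after NiO the count of 1 became 4 with normexp, 3 with the mean of all probes of a gene, 2 with quantile normalization, 2 with the filter on every array, 2 with all 4 C60 arrays, 2 in a fit of the compared groups, 3 without control arrays 3 and 4 together (chosen after seeing the data), and 1 to 3 when 1 array was left out. At 1 month after C60 the count of 2 became 1 to 3 when 1 array was left out, with 1 without control array 2, and 3 with all 4 C60 arrays of 3 days or with the filter on every array. At 3 days after C60 the count of 0 became 1 with all 4 arrays and 1 with the mean of probes. Between NiO and C60 the 3-day count of 0 became 1 with quantile normalization and 0 to 1 when 1 array was left out, and the 1-month count of 0 became 0 to 2, with 2 without NiO array 4. For the change of the C60 effect the count of 1 became 0 with quantile normalization, 2 with all 4 arrays, 2 in a fit of the compared groups, 2 with the mean of probes, 2 without control arrays 3 and 4 together, and 0 to 2 when 1 array was left out. For the change of the NiO effect it was 2 to 3. The cause of these shifts was not tested. The list genes were refitted without the same arrays, also chosen after seeing the data.

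Quantile normalization moved the median of all features by 0.14 at 1 month after NiO and 0.13 after C60, by 0.21 and 0.12 for the changes of the NiO and C60 effects, and by -0.14 for control over time. The share of calls that were higher went from 58.5% to 45.8% at 3 days after NiO, from 38.7% to 55.4% at 1 month after NiO and from 36.9% to 55.4% at 1 month after C60. It went from 65.0% to 52.0% between NiO and C60 at 3 days, from 38.5% to 59.9% and from 40.6% to 52.0% for the changes, and from 60.2% to 49.3% for control over time. No paired analysis was possible because the array numbers are positions on slides that each hold 1 group and pair no rats. Dim signal limits Cyp1a1 and the second Cyp1b1 probe.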
